A study of Mus musculus with 14 samples.

Results

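The genotype difference between BT3xHuBL and HuBL mice was measured in the aorta and in the liver, and the 2 differences were set against each other gene by gene. All 14 libraries of the series entered, 6 from aorta and 8 from liver. Of the 24732 features named in both count tables, 15400 passed the low-count filter in aorta, 12453 in liver and 11951 in both, and these 11951 carried the comparison. Another 3449 were tested in aorta alone, 502 in liver alone and 8830 in neither tissue.

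The HuBL aorta and BT3xHuBL aorta groups held 3 libraries each, and the HuBL liver and BT3xHuBL liver groups held 4 each. Every mouse had eaten a normal laboratory diet, and the labels put all samples at 52 weeks. The labels do not spell out either strain name. In published work of this field, HuBL stands for atherosclerosis-prone mice that carry human apolipoprotein B, and in BT lines T cells express a transgenic receptor specific for that protein, so that both genotypes here share the lipoprotein background and only BT3xHuBL adds the receptor. The labels do not say which receptor segments the BT3 transgene uses, whether each library is a separate animal, whether an aorta and a liver came from one mouse, or at what hour tissue was taken. The p-values therefore measure the spread between libraries, which may be technical in part. The series title points to protective immunity in atherosclerosis and to interleukin-10, and the 2 tissues allow the question of whether the added receptor goes with one response throughout the body or with different responses in the artery and the liver.

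Several gene families used below answer to interferons. Type I interferons, made by many cells on sensing viruses or nucleic acids, act on promoters with the interferon-stimulated response element (ISRE) and drive antiviral genes such as Isg15, Ifit1 and Mx2. Interferon gamma, made by T cells and natural killer cells, acts on the gamma-activated site (GAS), and through IRF1 on the ISRE, and drives the guanylate-binding proteins (GBP), the immunity-related GTPases (IRG) and genes of antigen presentation. GBP and IRG proteins coat and break the vacuoles of intracellular microbes. The families overlap, since many of their promoters answer to both kinds of interferon.

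Counts summed to 41933263 to 65539765 for the aorta libraries and to 13228123 to 17992459 for the liver libraries. Levels are given as CPM, counts scaled to a common library size within each tissue, so aorta and liver levels do not share a scaling. A log2 difference is BT3xHuBL minus HuBL, so that a positive value means a higher level in BT3xHuBL. Because the libraries read the 3′ ends of transcripts, these levels do not depend on transcript length. Tissue markers followed the labels: 9 hepatocyte markers together took 1.28 to 4.14 CPM in the aortas and 116200 to 150100 CPM in the livers, and 7 smooth muscle markers took 12720 to 17370 CPM in the aortas and 128 to 169 CPM in the livers. Libraries of one group differed by more than sampling noise, with a chi-square per degree of freedom of 12.2 to 75.7, and none was a copy of another. Several BT3xHuBL libraries stood apart: liver 2 in clock genes, liver 4 in acute phase genes and aorta 1 in interferon gamma genes. The receptor feature TCRB_Vb14, chosen after its values were seen, had 32, 38 and 2 counts in BT3xHuBL aortas 1 to 3 and 10, 0 and 1 in HuBL aortas 1 to 3, so receptor counts do not settle which genotype the library labelled BT3xHuBL aorta 3 has.

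No gene passed the adjusted threshold for a genotype difference that itself differed between aorta and liver. In the genotype-by-tissue interaction, 0 of 11951 genes (0%) were called in the edgeR quasi-likelihood test (Benjamini-Hochberg), and the smallest adjusted p was 0.21. DESeq2 called 42 genes in the same contrast, 37 with the aorta difference above the liver difference and 5 with it below, and limma-voom called 0. At an unadjusted p under 0.05 edgeR found 1029 genes (8.61%), 535 with the aorta difference above (4.48%) and 494 with it below (4.13%). The typical standard error of this contrast was 0.19 log2 units (median over genes), against a median absolute contrast of 0.16, so that for most genes a difference between tissues of the observed size was not detectable at this depth and number of libraries.

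A shared difference, averaged over both tissues, was likewise called for 0 of 11951 genes (0%) by edgeR, with a smallest adjusted p of 0.12 in its quasi-likelihood test (Benjamini-Hochberg). DESeq2 called 62 such genes, 23 higher and 39 lower in BT3xHuBL, and limma-voom called 0. The unadjusted edgeR count was 925 (7.74%). Within single tissues, edgeR called 4 of 15400 genes in aorta (0.026%) and 0 of 12453 in liver (0%). An unadjusted p under 0.05 was found by edgeR for 629 genes in aorta and 1381 in liver. Uniform p-values would give 770 in aorta and 623 in liver, so the aorta count lay below that number and the liver count above it. DESeq2 called 68 genes in aorta and 133 in liver, and limma-voom called 3 and 0.

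Across the 11951 genes the 2 sets of estimated log2 differences showed next to no relation. The median standard error over genes was 0.11 in aorta and 0.14 in liver, against median absolute differences of 0.07 and 0.13. Errors of that size can hide a shared response. Pearson's r was 0.03 and Spearman's rho was -0.01, both across genes, which are not independent replicates. The same sign was found for 5931 genes, 49.6% of all, made up of 3012 that were higher in BT3xHuBL in both tissues and 2919 that were lower in both. A higher level in aorta went with a lower level in liver for 2806 genes, and the opposite held for 3214. The share was 49.8% among the 8566 genes with a mean of at least 5 CPM in both tissues, and 50.7% among the 438 genes with an unadjusted p under 0.05 in aorta. Among the 56 genes with an unadjusted p under 0.05 in both tissues, 34 had the same sign (60.7%). Differences were wider in liver, with an SD over genes of 0.30, than in aorta, at 0.22, and the standard errors were larger in liver too. Leaving out HuBL aorta 2 lowered the same-sign share to 45.3% and leaving out HuBL aorta 3 raised it to 54.2%, so 1 aorta library moved this share by more than its distance from an even split.

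**Figure D1:**
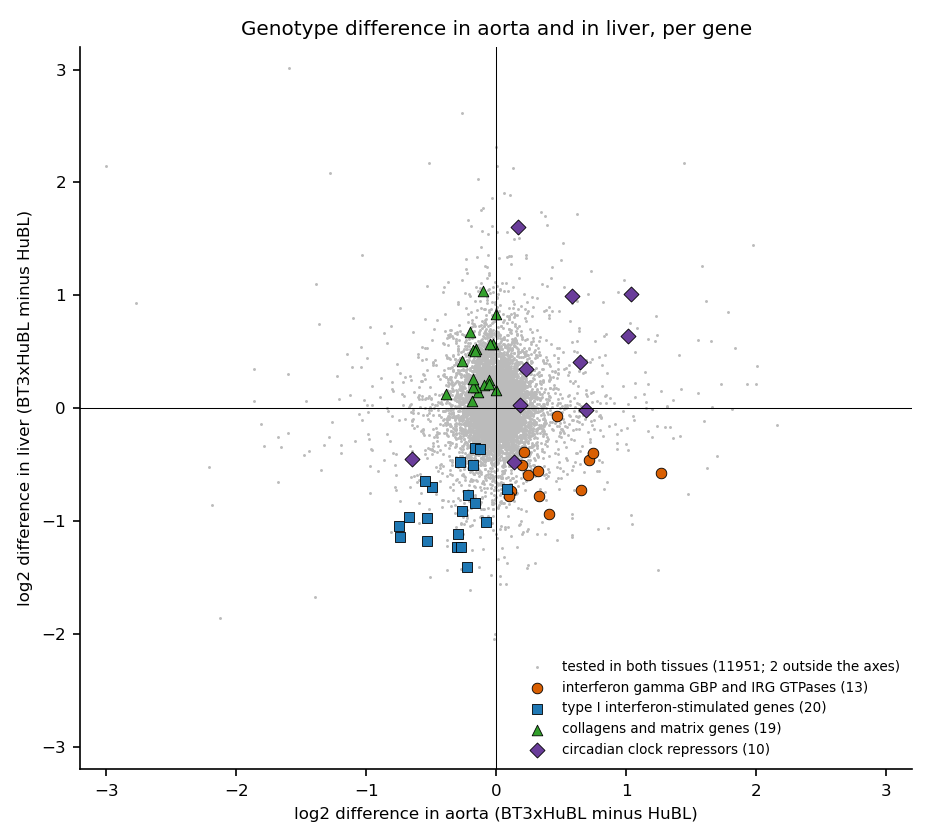
Each of the 11951 genes tested in both tissues is placed by its log2 difference (BT3xHuBL minus HuBL) in aorta on the x axis and in liver on the y axis, with 4 gene lists coloured and 2 genes outside the axes. The cloud shows no slope, while all 13 GBP and IRG genes sit at lower right, 19 of 20 type I interferon genes at lower left and all 19 collagen and matrix genes at upper left.

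Groups that do not overlap give a second count that needs no model. In aorta, the 3 BT3xHuBL libraries all lay above the 3 HuBL libraries for 518 of the 11951 genes (4.33%) and all below for 536 (4.48%). In liver, 360 genes (3.01%) were separated upward and 424 (3.55%) downward. Both tissues separated with a higher level in aorta and a lower level in liver for 20 genes (0.167%), with a lower level in aorta and a higher level in liver for 12 (0.1%), and in the same direction for 30 (0.251%). Those shares are the background for the counts of separated genes given for each family. For counts of genes with an unadjusted p under 0.05 in edgeR, the background is 8.61% in the interaction and 7.74% in the average.

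The 4 genes called in aorta were mostly out of reach in liver. Tcap (titin-cap, a sarcomere protein of striated muscle; chr11:98383811-98384953, GRCm38) was counted at 18.6, 19.02 and 16.3 CPM in the HuBL aortas against 48.4, 42.8 and 34.7 CPM in the BT3xHuBL aortas, a rise of 1.22 (SE 0.13) log2 units with an adjusted p of 0.00890 in the edgeR quasi-likelihood test (Benjamini-Hochberg). It lay at 0 to 0.06 CPM in every liver and was not tested there. Markers of skeletal and cardiac muscle summed to 19.5 to 22.03 CPM in HuBL aortas and 17.2 to 25.2 CPM in BT3xHuBL aortas, so that sum overlapped between the genotypes where Tcap did not. Tnnt2 was the largest part of it, at means of 14.09 and 13.59 CPM. Among the other markers, Myh6 (1.353 and 2.115 CPM), Actc1, Ckm and Myh7 had higher means in BT3xHuBL, and Tnni3 and Ttn had lower ones. The part of striated muscle in the Tcap value was not tested. Dbp (a transcription factor driven directly by the circadian clock; chr7:45705088-45710203) overlaps another annotated gene and rose in aorta from 32.2, 32.4 and 32.6 CPM to 98.98, 96.98 and 68.2 CPM, by 1.44 (SE 0.13) log2 units with an adjusted p of 0.00890 in the same test. Its liver levels were 1.83, 2.31, 5.34 and 2.42 CPM in HuBL against 7.29, 40.4, 3.23 and 2.62 CPM in BT3xHuBL. There, BT3xHuBL liver 2 stood far above every other liver library and the groups overlapped, and the Dbp contrast between tissues was -0.72 (SE 1.07).

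Igkv10-96, an immunoglobulin kappa variable segment (chr6:68631963-68632442), fell in aorta from 10.4, 14.2 and 14.7 CPM to 4.51, 3.49 and 4.08 CPM, by 1.71 log2 units (SE 0.18) with an adjusted p of 0.00890 in the edgeR quasi-likelihood test (Benjamini-Hochberg). Igkv8-30, another kappa segment, fell from 3.62, 3.52 and 4.36 CPM to 0.646, 0.569 and 0.244 CPM, by 2.98 log2 units (SE 0.36; adjusted p 0.0248, the same edgeR quasi-likelihood test). In liver the 2 segments stayed at or under 0.89 CPM in every library and were not tested. Kappa segments resemble each other closely, so how reads were shared among them is uncertain. Leaving out HuBL aorta 2 or HuBL aorta 3 ended all 4 aorta calls, leaving out HuBL aorta 1 kept only Igkv10-96 of the 4 and added Igkv12-41, and leaving out BT3xHuBL aorta 3 gave 27.

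The GBP and IRG GTPases pointed in opposite directions in the 2 tissues. Of 15 listed genes, 13 were tested in both: all 13 were higher in BT3xHuBL in aorta (median log2 difference 0.33) and all 13 were lower in liver (median -0.58), against all-gene medians of -0.0033 and 0.010. In bulk tissue, fewer cells of a type and less RNA per cell cannot be told apart.

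Promoter sequence is shown for 3 GTPase genes and for 3 type I interferon genes, because both families answer to interferons and their differences had unlike signs in aorta. Each window is the 250 bases before the annotated start (RefSeq, GRCm38.p6), read 5′ to 3′ on the gene's strand, with capitals on every ISRE core (GAAA, any 2 bases, GAAA) and GAS core (TTC, any 3 bases, GAA) on either strand. Cores may overlap each other.
Igtp (chr11:58199306-58199555, plus strand): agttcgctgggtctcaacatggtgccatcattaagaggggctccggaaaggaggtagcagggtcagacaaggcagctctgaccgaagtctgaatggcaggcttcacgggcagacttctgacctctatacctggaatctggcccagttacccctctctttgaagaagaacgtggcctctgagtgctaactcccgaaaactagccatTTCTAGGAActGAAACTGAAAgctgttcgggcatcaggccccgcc
Gbp5 (chr3:142496684-142496933, plus strand): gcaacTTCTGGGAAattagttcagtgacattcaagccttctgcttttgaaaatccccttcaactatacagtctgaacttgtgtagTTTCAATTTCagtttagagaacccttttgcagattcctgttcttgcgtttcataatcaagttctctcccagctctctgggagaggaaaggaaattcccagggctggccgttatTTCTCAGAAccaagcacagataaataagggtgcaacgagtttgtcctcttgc
Gbp3 (chr3:142559794-142560043, plus strand): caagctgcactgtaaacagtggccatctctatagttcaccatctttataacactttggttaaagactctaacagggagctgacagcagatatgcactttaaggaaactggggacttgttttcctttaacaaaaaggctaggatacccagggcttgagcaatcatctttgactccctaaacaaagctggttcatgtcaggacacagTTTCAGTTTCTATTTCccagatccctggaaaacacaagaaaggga
Isg15 (chr4:156200819-156201068, minus strand): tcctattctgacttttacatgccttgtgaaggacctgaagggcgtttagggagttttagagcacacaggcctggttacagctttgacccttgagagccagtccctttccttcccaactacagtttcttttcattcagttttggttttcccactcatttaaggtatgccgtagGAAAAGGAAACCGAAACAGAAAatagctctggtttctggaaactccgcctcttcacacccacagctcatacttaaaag
Ifit1 (chr19:34640639-34640888, plus strand): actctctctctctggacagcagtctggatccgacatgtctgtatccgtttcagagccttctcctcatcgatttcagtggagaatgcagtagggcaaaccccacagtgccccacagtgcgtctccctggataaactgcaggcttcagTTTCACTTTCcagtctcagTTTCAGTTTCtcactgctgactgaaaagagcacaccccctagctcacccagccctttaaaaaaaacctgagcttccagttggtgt
Ifit3 (chr19:34583279-34583528, plus strand): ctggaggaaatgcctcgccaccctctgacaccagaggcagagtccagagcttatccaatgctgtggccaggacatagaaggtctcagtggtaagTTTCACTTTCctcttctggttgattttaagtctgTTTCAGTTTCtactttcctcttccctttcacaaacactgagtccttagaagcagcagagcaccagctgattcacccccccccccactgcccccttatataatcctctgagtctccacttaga

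An ISRE core was present in 7 of the 8 GTPase promoters in the table (87.5%), in 6 of 15 type I interferon promoters (40%) and in 2 of 10 MHC class I promoters (20%). Over all 27025 promoters of the same length 821 held one (3.04%), and over the 9039 matched genes tested in both tissues 242 did (2.68%). A GAS core was found in 4 of the 8 GTPase promoters (50%), 2 of the 15 type I interferon promoters (13.3%) and 1 of the 10 MHC class I promoters (10%), against 1940 of all promoters (7.18%). Igtp carried a GAS core 45 to 37 bases and an ISRE core 34 to 25 bases before its start. Gbp5 carried 2 GAS cores, 1 of them 52 to 44 bases before its start. The Gbp3, Isg15, Ifit1 and Ifit3 windows held ISRE cores without a GAS core. These are matches of letters, and none was tested for function here.

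Gbp4 (chr5:105115767-105139586) showed the widest split among the GTPases. It was counted at 9.92, 8.70 and 10.1 CPM in the HuBL aortas against 28.7, 25.96 and 14.5 CPM in the BT3xHuBL aortas, and at 14.3, 20.4, 28.1 and 16.8 CPM in the HuBL livers against 18.9, 12.8, 10.8 and 10.5 CPM in the BT3xHuBL livers. All BT3xHuBL aortas lay above all HuBL aortas, with aorta 3 the lowest of them, while the livers overlapped. The log2 difference was 1.26 (SE 0.24) in aorta and -0.58 (SE 0.24) in liver, and the contrast of 1.86 (SE 0.37) had an adjusted p of 0.210 in the edgeR quasi-likelihood test (Benjamini-Hochberg).

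Igtp, an IRG GTPase, was counted at 23.4, 18.6 and 21.2 CPM in HuBL against 43.03, 30.6 and 25.9 CPM in BT3xHuBL aortas. In liver it had 219.9, 275, 341 and 196 CPM in HuBL against 162, 215, 113 and 133 CPM in BT3xHuBL. The aorta groups did not overlap, the livers did through HuBL liver 4 and BT3xHuBL liver 2, and the contrast was 1.39 (SE 0.33). Gbp5, which promotes inflammasome assembly, had 17.6, 16.01 and 19.5 CPM in HuBL against 28.8, 22.7 and 19.1 CPM in BT3xHuBL aortas. In liver Gbp5 had 5.80, 8.95, 10.7 and 5.29 CPM in HuBL against 4.86, 4.16, 3.81 and 3.09 CPM in BT3xHuBL. Its separation lay in the liver, where every BT3xHuBL library was below every HuBL library, and the contrast was 1.35 (SE 0.31). Iigp1, the founding effector of the IRG family, had contrast 1.16 (SE 0.32), from 0.74 (SE 0.30) in aorta and -0.40 (SE 0.16) in liver.

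Gbp6 was the family member whose groups were apart in both tissues. It had 14.5, 14.6 and 14.4 CPM in HuBL against 24.03, 14.7 and 15.99 CPM in BT3xHuBL aortas, against 43.7, 63.8, 70.1 and 46.5 CPM in HuBL against 39.7, 41.8, 22.1 and 26.5 CPM in BT3xHuBL livers. The aorta margin was narrow for BT3xHuBL aorta 2. Contrasts of the other GTPases ran from 0.55 for Gbp2, whose liver difference was -0.07 (SE 0.22), to 1.19 for Gbp8. In all, 10 of the 13 had an unadjusted interaction p under 0.05 (all genes 8.61%), and DESeq2 called Igtp and Iigp1. By group overlap, 5 of 13 were separated upward in aorta (all genes 4.33%) and 2 of 13 downward in liver (all genes 3.55%). Both held for 1 of 13 (all genes 0.167%).

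The aorta side of this pattern leaned on 1 library. As a mean over the list, BT3xHuBL aortas 1 to 3 lay 0.70, 0.33 and 0.08 log2 units above the HuBL aorta mean, and the HuBL aortas ran from -0.07 to 0.10. Without BT3xHuBL aorta 1 the aorta median of the list was 0.15. In the livers, BT3xHuBL 1 to 4 lay at -0.33, -0.18, -0.84 and -0.84 and the HuBL livers from -0.32 to 0.34, so libraries 3 and 4 were apart from the rest and library 2 lay inside the HuBL range. The liver median ran from -0.71 to -0.47 over all removals of 1 library, and the median over genes of the aorta difference minus the liver difference, 0.88 in the separate fits, ran from 0.73 to 1.21 over the same removals.

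**Figure D2:**
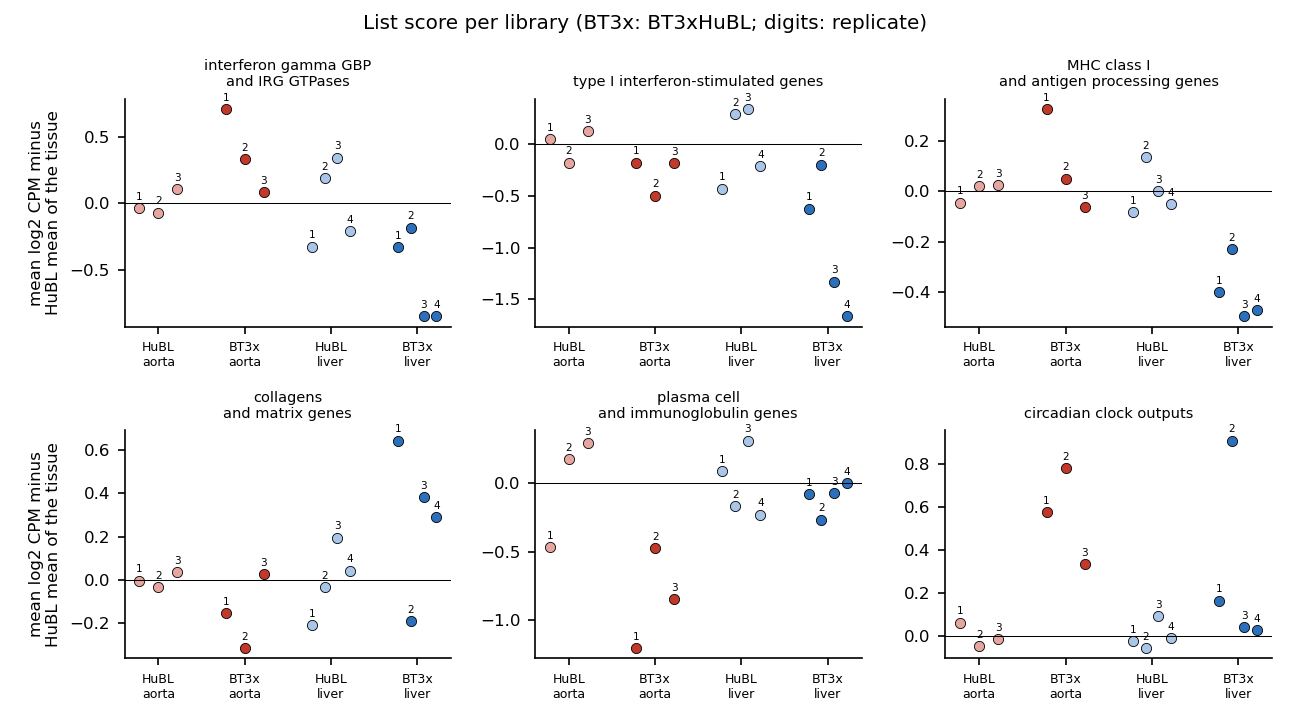
For 6 gene lists, each point is 1 library's mean log2 CPM over the list minus the HuBL mean of its tissue (y axis), by group (x axis), with replicate numbers above the points. GBP and IRG GTPases lie at 0.08 to 0.70 in BT3xHuBL aortas and -0.84 to -0.18 in BT3xHuBL livers, whereas type I interferon genes lie at -0.50 to -0.18 in BT3xHuBL aortas (HuBL -0.18 to 0.13) and -1.67 to -0.20 in BT3xHuBL livers (HuBL -0.43 to 0.34), overlapping HuBL in both tissues.

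Genes of MHC class I presentation, which display peptides from inside the cell to CD8 T cells, were lower in every tested member in BT3xHuBL liver and showed little difference in aorta. Of 12 tested in both tissues, 12 were lower in liver (median -0.43) and 10 were higher in aorta (median 0.14). H2-D1 (chr17:35262730-35267499), a classical heavy chain, was counted at 178, 176 and 164 CPM in HuBL against 192, 194 and 187 CPM in BT3xHuBL aortas. Its livers had 691, 680.0, 586 and 584 CPM in HuBL against 376, 459.7, 424 and 355 CPM in BT3xHuBL. The groups did not overlap in either tissue, narrowly in aorta and widely in liver. Its contrast of 0.81 (SE 0.15) had an adjusted p of 0.210 in the edgeR quasi-likelihood test (Benjamini-Hochberg). H2-D1 resembles its neighbours in the MHC and overlaps another annotated gene, so its count may hold reads of either.

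H2-K1, the other classical heavy chain of the list, had 3330.0, 3367, 2905 and 2819 CPM in HuBL against 1950.0, 2427, 2396 and 1864 CPM in BT3xHuBL livers, again with no overlap, and 628, 672 and 659 CPM against 889, 713 and 660.4 CPM in aortas, where the groups overlapped. Its contrast was 0.75 (SE 0.20). B2m, the light chain that all class I molecules share, followed in liver at -0.41 (SE 0.12) and was level in aorta at 0.01 (SE 0.10). Psmb8 and Psmb9, subunits of the immunoproteasome that cuts peptides for class I, had liver differences of -0.46 (SE 0.09) and -0.60 (SE 0.12), and Tapbp, which loads those peptides, -0.35 (SE 0.09). Their aorta differences were 0.12, -0.08 and 0.10.

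In all, 9 of the 12 had an unadjusted interaction p under 0.05 (all genes 8.61%). By group overlap, 7 of 12 were separated downward in liver (all genes 3.55%) and 2 of 12 upward in aorta (all genes 4.33%). Both held for 2 of 12, H2-D1 and Tap2 (all genes 0.167%). DESeq2 called H2-D1, H2-K1 and Tapbp in the interaction. The aorta median was -0.0020 without BT3xHuBL aorta 1, while the liver median stayed between -0.49 and -0.38 over all removals. MHC class II genes, which serve antigen-presenting cells, had medians of 0.08 in aorta and -0.23 in liver over 8 genes, and 0 of 8 had an unadjusted interaction p under 0.05. Cd74, the invariant chain, stood at 876, 605 and 518 CPM in BT3xHuBL aortas 1 to 3 and 512, 614 and 649 CPM in HuBL aortas, so that only BT3xHuBL aorta 1 lay above the HuBL range. Without that library the class II aorta median was -0.18.

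Type I interferon-stimulated genes were mostly lower in BT3xHuBL in both tissues. All 20 were lower in BT3xHuBL liver (median -0.94) and 19 of 20 were lower in aorta (median -0.27); the remaining gene was higher in aorta. The shared difference had an unadjusted p under 0.05 for 15 of 20 (all genes 7.74%). The interaction had one for 2 of 20, Mx1 among them (all genes 8.61%). The contrast was above 0 for 20 of 20, with a median of 0.51, close to the 0.50 of the MHC class I list. By group overlap, 4 of 20 were separated downward in aorta (all genes 4.48%) and 4 of 20 in liver (all genes 3.55%). Mx2 is a GTPase gene annotated as a polymorphic pseudogene. It was counted at 6.10, 4.62 and 5.64 CPM in HuBL against 4.09, 2.83 and 2.88 CPM in BT3xHuBL aortas. Its livers had 66.8, 96.5, 108 and 60.9 CPM in HuBL against 39.2, 54.5, 32.4 and 24.7 CPM in BT3xHuBL. The groups were apart in the same direction in both tissues, which held for 1 of the 20, and the average difference of -0.94 (SE 0.18) had an adjusted p of 0.149 in the edgeR quasi-likelihood test (Benjamini-Hochberg).

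Isg15, a ubiquitin-like protein attached to other proteins after interferon, had 22.9, 16.4 and 19.8 CPM in HuBL against 12.8, 9.07 and 15.2 CPM in BT3xHuBL aortas, with no overlap. In liver it had 209, 379, 382 and 242 CPM in HuBL against 178, 255, 115 and 73.7 CPM in BT3xHuBL, where only library 2 lay inside the HuBL range. The average difference was -0.82 (SE 0.25). Irf7, the factor that amplifies type I interferon, averaged -0.60 (SE 0.14): 29.6, 28.1 and 35.4 CPM against 25.7, 17.9 and 22.5 CPM in aortas, and 406, 442, 420.0 and 373 CPM against 223, 387, 212 and 189.7 CPM in livers. BT3xHuBL liver 2 was again the one close to HuBL. DESeq2 called Irf7 and Mx2 in the average. Ifit1, whose promoter is shown above, had log2 differences of -0.30 (SE 0.16) in aorta and -1.11 (SE 0.46) in liver, and Ifit3 -0.30 (SE 0.13) and -1.23 (SE 0.60). Bst2 (tetherin), outside the list but also induced by interferon, averaged -0.38 (SE 0.07) with 722, 610.2, 661 and 661 CPM in HuBL against 423, 451, 486 and 410.5 CPM in BT3xHuBL livers.

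As list means, type I genes lay at -0.18, -0.50 and -0.18 in BT3xHuBL aortas 1 to 3 relative to the HuBL mean, but HuBL aorta 2 also lay at -0.18, so that only BT3xHuBL aorta 2 was well apart. In the livers, BT3xHuBL 2 at -0.20 lay inside the HuBL range of -0.43 to 0.34, and the other BT3xHuBL livers lay below it at -0.62, -1.33 and -1.67. The median difference in aorta thus had opposite signs for the GTPase and type I lists, and the same sign in liver. The 2 lists were not tested against each other.

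**Figure D3:**
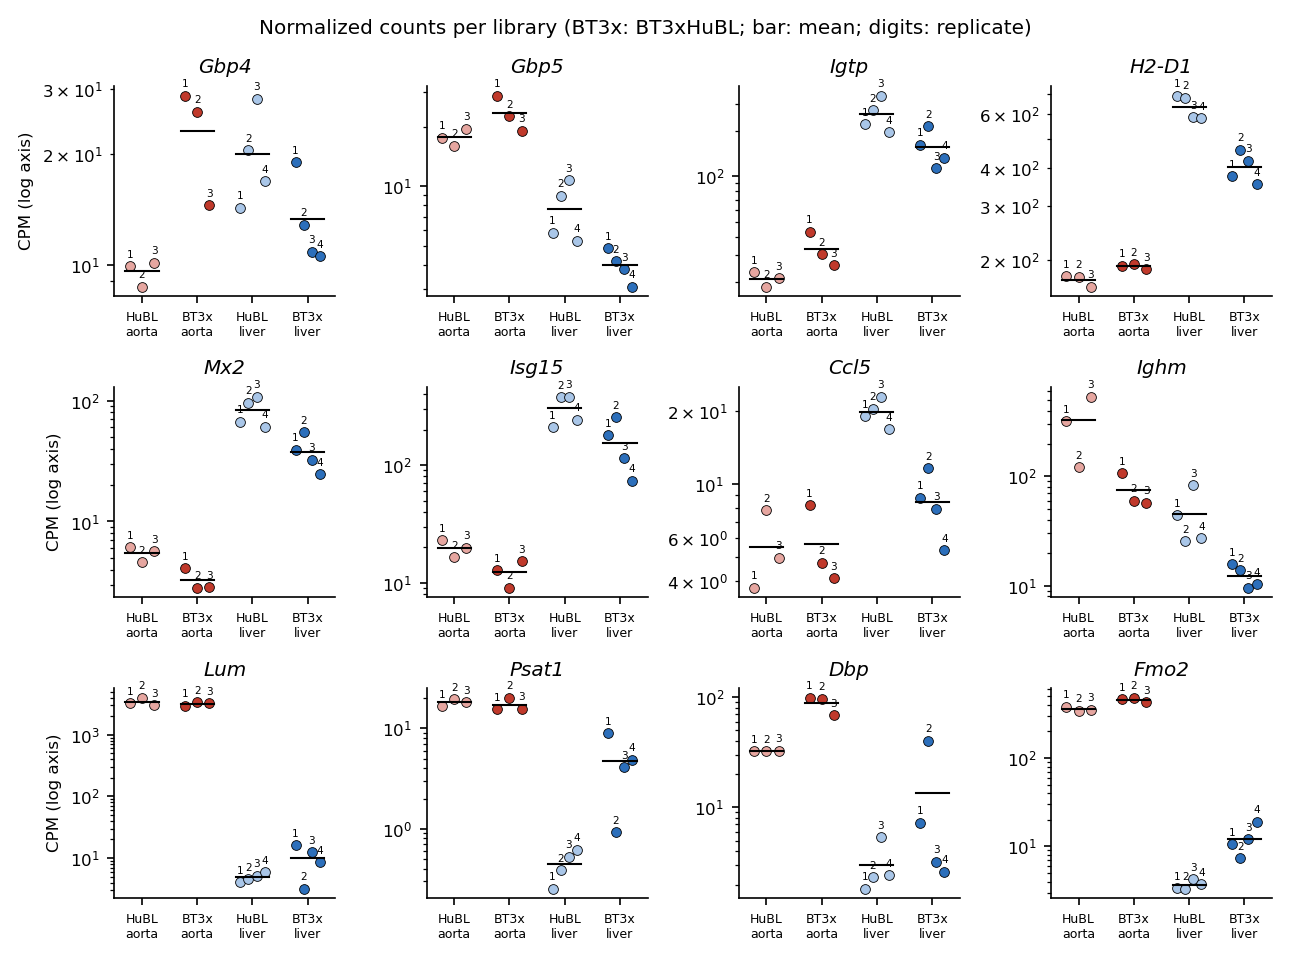
CPM on a log axis is plotted per library for 12 genes, by tissue and genotype, with replicate numbers and a bar at the mean. Gbp4 is higher in all 3 BT3xHuBL aortas (14.5 to 28.7 CPM, HuBL 8.70 to 10.1), H2-D1 is lower in all 4 BT3xHuBL livers (355 to 460 CPM, HuBL 584 to 691), and Mx2 is lower in BT3xHuBL in both tissues.

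T cell genes were lower in BT3xHuBL liver and level in aorta. Of 18 genes tested in both tissues, 17 were lower in liver (median -0.70) and 10 were lower in aorta (median -0.02). Cd4, the helper T cell co-receptor, was counted at 14.4, 13.5 and 12.4 CPM in HuBL against 11.02, 19.4 and 10.2 CPM in BT3xHuBL aortas, where the groups overlapped. In liver it was counted at 2.52, 3.78, 3.16 and 2.76 CPM in HuBL against 1.15, 1.32, 1.94 and 0.416 CPM in BT3xHuBL, with no overlap, and its contrast was 1.37 (SE 0.44). Cd3e, a signalling chain of the T cell receptor, had 1.83, 2.24, 2.56 and 1.29 CPM in HuBL against 0.911, 0.925, 1.42 and 0.357 CPM in BT3xHuBL livers and a contrast of 1.73 (SE 0.69). Cd8a, the cytotoxic co-receptor, was lower by a similar amount in both tissues, -0.59 (SE 0.34) in aorta and -0.64 (SE 0.34) in liver. In the interaction, 5 of 18 had an unadjusted p under 0.05 (all genes 8.61%). By group overlap, 4 of 18 were separated downward in liver (all genes 3.55%). Without BT3xHuBL aorta 1 the aorta median was -0.20 and without BT3xHuBL aorta 3 it was 0.17.

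Chemokines that draw T cells differed in the same manner. Cxcl9, induced by interferon gamma, had 3.57, 3.42 and 6.83 CPM in HuBL against 13.4, 7.86 and 2.68 CPM in BT3xHuBL aortas, 41.2, 57.5, 62.8 and 30.4 CPM in HuBL livers against 21.6, 23.9, 29.4 and 16.1 CPM in BT3xHuBL livers. Livers did not overlap and aortas did, because BT3xHuBL aorta 3 was the lowest of the 6, and the contrast was 1.86 (SE 0.63). Cxcl10, a second ligand of the same receptor, was separated downward in liver (41.8, 41.8, 61.9 and 32.5 CPM against 23.1, 19.2, 14.7 and 9.94 CPM) with a contrast of 1.29 (SE 0.47). Ccl5, made by T and natural killer cells, had 19.1, 20.5, 23.03 and 16.9 CPM in HuBL against 8.80, 11.6, 7.93 and 5.36 CPM in BT3xHuBL livers against 3.74, 7.80 and 4.98 CPM and 8.19, 4.74 and 4.09 CPM in aortas, and its contrast was 1.31 (SE 0.41). Among 16 chemokines tested in both tissues the medians were 0.03 in aorta and -0.34 in liver. Of these, 6 of 16 had an unadjusted interaction p under 0.05 (all genes 8.61%) and 4 of 16 were separated downward in liver (all genes 3.55%).

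Cytotoxic and natural killer genes had medians of 0.05 in aorta and -0.34 in liver over 7 genes, all 7 lower in liver. Gzma, a granule protease, was low everywhere, at 0.450, 0.147 and 0.206 CPM in HuBL against 0.891, 0.883 and 0.504 CPM in BT3xHuBL aortas and 1.83, 0.772, 1.43 and 0.675 CPM and 0.546, 0.859, 0.710 and 0.654 CPM in livers, with a contrast of 2.22 (SE 0.63). Il10, the anti-inflammatory cytokine named in the series title, was tested in aorta only, where it had 0.124, 0.269 and 0.237 CPM in HuBL against 0.751, 1.03 and 0.569 CPM in BT3xHuBL. The aorta groups did not overlap and the log2 difference of 1.91 (SE 0.56) had an adjusted p of 0.899 in the edgeR quasi-likelihood test (Benjamini-Hochberg). In liver, Il10 stood at 0.189 to 0.602 CPM in HuBL and 0.0595 to 0.323 CPM in BT3xHuBL, too low to test. Of 7 regulatory T cell and interleukin-10 genes tested in both tissues, 6 were lower in BT3xHuBL aorta (median -0.06) and 5 in liver (median -0.17). The sign was the same in both tissues for 6 of the 7, and Il10 was not among them.

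B lineage genes were mostly lower in BT3xHuBL in both tissues. Of 13 B cell genes, 12 were lower in aorta (median -0.65) and 12 in liver (median -0.34). An unadjusted interaction p under 0.05 was found for 2 of 13 (all genes 8.61%). Pou2af1, a coactivator needed for germinal centres, had 5.14, 6.63 and 9.36 CPM in HuBL against 1.27, 2.23 and 1.12 CPM in BT3xHuBL aortas, well apart. In liver it had 1.58, 1.00, 1.81 and 1.24 CPM in HuBL against 0.364, 1.19, 0.581 and 0.952 CPM in BT3xHuBL, where BT3xHuBL liver 2 and the HuBL livers overlapped. The average difference of -1.52 (SE 0.26) had an adjusted p of 0.149 in the edgeR quasi-likelihood test (Benjamini-Hochberg). Ighm, the IgM heavy chain, was separated downward in both tissues, at 319, 122 and 539 CPM against 108, 59.9 and 57.3 CPM in aortas and 43.98, 25.5, 83.5 and 27.1 CPM against 15.8, 13.8, 9.55 and 10.2 CPM in livers, with -2.12 (SE 0.67) and -1.86 (SE 0.42) as its log2 differences.

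The class-switched and light chain genes did not move alike in the 2 tissues. Igkc, the kappa constant region, was separated in aorta (291, 597 and 459 CPM against 53.8, 160.1 and 77.4 CPM) and overlapped in liver (36.9, 24.2, 50.05 and 24.98 CPM against 28.5, 19.8, 24.5 and 21.5 CPM), with a contrast of -1.67 (SE 0.51). Jchain, which joins IgM and IgA into polymers, had a contrast of -1.30 (SE 0.46). Ighg2b, an IgG heavy chain, had 85.5, 369 and 174 CPM in HuBL against 7.42, 39.7 and 44.7 CPM in BT3xHuBL aortas, against 4.92, 4.94, 4.44 and 1.63 CPM in HuBL against 9.53, 6.41, 9.998 and 4.28 CPM in BT3xHuBL livers. It was lower in aorta and higher in liver, overlapping in liver, with a contrast of -3.71 (SE 0.94). Over 15 plasma cell and immunoglobulin genes, medians were -0.99 in aorta and -0.09 in liver, and 9 of 15 shared a sign. By group overlap, 6 of 15 were separated downward in aorta (all genes 4.48%) and 1 of 15 in liver (all genes 3.55%). DESeq2 called 5 of the 15 in the average and Ighg2b in the interaction. Markers of lymphoid tissue summed to 13.9 to 21.6 CPM in HuBL and 8.79 to 22.5 CPM in BT3xHuBL aortas, and to 6.48 to 9.18 CPM and 5.23 to 8.50 CPM in livers, and their part in these values was not tested.

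Collagens and other matrix genes formed the second group with opposite signs. Each of 19 was lower in BT3xHuBL aorta (median -0.16) and each was higher in BT3xHuBL liver (median 0.25). The levels differ greatly between tissues, since smooth muscle cells and fibroblasts of the artery wall make matrix in bulk. Col1a1, a chain of type I collagen, had 3121, 2517 and 3486 CPM in HuBL against 2633, 2215 and 3075 CPM in BT3xHuBL aortas, against 3.22, 5.09, 10.8 and 6.64 CPM and 17.5, 3.90, 12.9 and 6.54 CPM in livers. Groups overlapped in both tissues, and BT3xHuBL liver 1 and liver 3 were the highest of the livers. Its log2 differences were -0.20 (SE 0.15) and 0.67 (SE 0.52), and its contrast was -0.87 (SE 0.59).

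Lum, a proteoglycan that orders collagen fibrils, had 4.10, 4.55, 5.19 and 5.85 CPM in HuBL against 16.2, 3.17, 12.6 and 8.57 CPM in BT3xHuBL livers, where libraries 1, 3 and 4 lay above the HuBL range and library 2 below it, and its contrast was -1.13 (SE 0.48). Fn1 (fibronectin) was the member whose aorta groups were apart, at 12770.0, 13160.0 and 13220.0 CPM in HuBL against 10080.0, 10600.0 and 11920.0 CPM in BT3xHuBL, with a contrast of -0.67 (SE 0.27). Lum and Fn1 were the 2 of 19 with an unadjusted interaction p under 0.05, 1 of 19 was separated downward in aorta and 0 of 19 upward in liver. These shares are close to the background or under it. In aorta the signs were fragile: under library-total scaling or DESeq2-type size factors 2 of the 19 turned positive, and without BT3xHuBL aorta 2 there were 6. In liver, 17 of 19 stayed higher without BT3xHuBL liver 1 and 16 of 19 without BT3xHuBL liver 4. As list means, the BT3xHuBL aortas lay at -0.15, -0.31 and 0.03 and the BT3xHuBL livers at 0.64, -0.19, 0.38 and 0.29, against HuBL livers of -0.21 to 0.20.

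Elastic fibre genes followed the same division, with 13 of 13 higher in liver (median 0.33) and 10 of 13 lower in aorta (median -0.11). Eln, elastin, had 5706, 4860.0 and 5743 CPM in HuBL aortas against 3230.0, 2557 and 5146 CPM in BT3xHuBL aortas, so that BT3xHuBL aortas 1 and 2 were far below and aorta 3 inside the HuBL range. Its liver level was 1.00 to 4.82 CPM in HuBL and 1.12 to 4.796 CPM in BT3xHuBL. Loxl2, a collagen cross-linking oxidase that overlaps another gene in the annotation, had log2 differences of -0.14 (SE 0.08) and 0.66 (SE 0.31). Markers of hepatic stellate cells, the liver's collagen makers, summed to 101 to 131 CPM in HuBL and 121 to 152 CPM in BT3xHuBL livers, with Reln at 20.2, 18.3, 19.6 and 25.9 CPM against 38, 23.1, 36.2 and 29.6 CPM and Lrat overlapping at 14.7 to 23.8 CPM against 11.8 to 21.2 CPM. Cholangiocyte markers summed to 101 to 159 CPM in HuBL and 106 to 266 CPM in BT3xHuBL livers, highest in BT3xHuBL liver 1. Spp1 was the largest part of that sum, at means of 86.1 CPM in HuBL and 136.8 CPM in BT3xHuBL livers. Sox9 had a lower mean in BT3xHuBL (35.96 and 27.2 CPM). Krt7, Krt19, Epcam and Cftr had higher means in BT3xHuBL, none above 3.48 CPM. The part of either cell type in the liver values was not tested.

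Most clock repressors and outputs were higher in BT3xHuBL in both tissues, with the liver side resting on 1 library, while activators were mixed. The molecular clock is a loop in which Arntl, Clock and Npas2 drive the Per, Cry and Nr1d repressors and output factors such as Dbp, Tef and Hlf, so that activators and outputs peak at different hours. Arntl (Bmal1) was counted at 27.6, 22.7 and 27.1 CPM in HuBL against 10.9, 9.56 and 16.1 CPM in BT3xHuBL aortas, far apart. In livers it had 35.4, 35.2, 35.1 and 33.98 CPM in HuBL against 30.5, 16.7, 31.8 and 35.05 CPM in BT3xHuBL, where liver 2 alone stood well below the rest. Nr1d1 (Rev-erb alpha) had 86.9, 95.1 and 95.97 CPM against 176, 116 and 124 CPM in aortas and 20.4, 47.5, 72.3 and 47.4 CPM against 100.4, 139.7, 84.2 and 48.5 CPM in livers, and averaged 0.79 (SE 0.26). Per3, a period repressor, averaged 1.03 (SE 0.31) with nearly equal differences of 1.03 in aorta and 1.01 in liver. Tef, an output factor, had log2 differences of 0.79 (SE 0.14) in aorta and 0.45 (SE 0.30) in liver. The outputs with an unadjusted interaction p under 0.05 were Hlf, with 1.13 (SE 0.27) in aorta, 0.12 (SE 0.10) in liver and a contrast of 1.02 (SE 0.27), and Tsc22d3, a glucocorticoid-induced leucine zipper protein, with 0.62 (SE 0.29), -0.40 (SE 0.25) and 1.03 (SE 0.39).

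Of 7 clock outputs, 6 were higher in aorta (median 0.62), 5 in liver (median 0.45) and 6 had the same sign. Of 10 repressors, 9 were higher in aorta (median 0.40), 7 in liver (median 0.38) and 8 shared a sign. Of 5 activators, 3 were lower in aorta (median -0.28), 3 in liver (median -0.29), 3 had the same sign and 3 had an unadjusted interaction p under 0.05. The liver side of outputs and repressors rested on BT3xHuBL liver 2: without it the liver medians were 0.06 for outputs and -0.11 for repressors. The aorta side did not rest on 1 library, with medians of 0.24 to 0.80 for outputs and 0.29 to 0.48 for repressors. The labels give no hour of collection, so genotype and hour cannot be told apart.

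The genes with the smallest interaction p included Gbp4 and H2-D1 of the lists above, beside genes with other roles. Whether they share functions more than other genes do was not tested. Pycard (chr7:127989708-127993867), the adaptor that links inflammasome sensors to caspase-1, was level in aorta, at 18.6, 21.2 and 19.9 CPM in HuBL against 19.4, 24.6 and 20.2 CPM in BT3xHuBL. In liver it had 3.03, 4.63, 3.99 and 3.15 CPM in HuBL against 1.94, 1.59, 1.68 and 1.49 CPM in BT3xHuBL, with every BT3xHuBL library below every HuBL library. Its contrast of 1.25 (SE 0.22) had an adjusted p of 0.210 in the edgeR quasi-likelihood test (Benjamini-Hochberg). Over 14 inflammasome and interleukin-1 genes the medians were 0.0020 in aorta and -0.17 in liver. Of these, 4 of 14 had an unadjusted interaction p under 0.05 (all genes 8.61%).

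Psat1 (chr19:15904678-15947337), which makes serine's precursor, had 16.7, 19.6 and 18.2 CPM in HuBL against 15.5, 20.3 and 15.7 CPM in BT3xHuBL aortas, where the groups overlapped. In liver it had 0.252, 0.386, 0.527 and 0.619 CPM in HuBL against 8.98, 0.925, 4.13 and 4.88 CPM in BT3xHuBL, separated, with BT3xHuBL liver 2 closest to HuBL. Its contrast of -3.46 (SE 0.71) had an adjusted p of 0.225 in the edgeR quasi-likelihood test (Benjamini-Hochberg). Asns, asparagine synthetase, showed the same libraries high: 0.694, 1.00, 1.35 and 0.506 CPM in HuBL against 17.9, 0.661, 11.7 and 8.69 CPM in BT3xHuBL livers, with liver 2 inside the HuBL range, and a contrast of -3.72 (SE 0.90). Leaving out BT3xHuBL liver 2 brought both genes past the adjusted threshold in the interaction, with contrasts of -3.80 for Psat1 and -4.10 for Asns, together with Fmo2 (-1.57) and Ptgfrn (-1.49). Gldc, the glycine decarboxylase of the liver's glycine cleavage system, was opposite in sign: it had 0.559, 0.636 and 0.775 CPM in HuBL against 1.03, 0.928 and 0.910 CPM in BT3xHuBL aortas, and 199.8, 193, 196 and 176 CPM in HuBL against 143, 160.1, 137 and 164 CPM in BT3xHuBL livers. Its groups did not overlap in either tissue and the contrast was 0.89 (SE 0.17).

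Hgf, hepatocyte growth factor, was separated in both tissues in the other sense, lower in BT3xHuBL aortas (26.03, 36.6 and 36.01 CPM against 24.9, 25.8 and 24.5 CPM) and higher in BT3xHuBL livers (0.883, 1.70, 1.28 and 1.63 CPM against 2.25, 2.38, 2.13 and 3.03 CPM), with a contrast of -1.22 (SE 0.27). Bhlha15 (Mist1), a factor of secretory and plasma cells, had the widest contrast at -5.13 (SE 1.00), on counts near the filter: 0.388, 0.538 and 0.822 CPM against 0.105, 0.0299 and 0.0812 CPM in aortas and 0.505, 0, 1.05 and 0.281 CPM against 2.00, 0.859, 3.74 and 1.55 CPM in livers. Steap2, a metal reductase, was level in aorta at -0.03 (SE 0.13) and higher in BT3xHuBL livers, with 4.86, 2.93, 1.73 and 2.93 CPM in HuBL against 11.8, 8.06, 9.80 and 16.01 CPM in BT3xHuBL, and its contrast was -1.88 (SE 0.36). Ube2h, a ubiquitin-conjugating enzyme, and Slc25a51, the mitochondrial NAD carrier, had smaller contrasts with narrow errors, 0.63 (SE 0.12) and 0.57 (SE 0.11). Ly6c1, an endothelial and lymphocyte surface protein, was level in aorta at 0.07 (SE 0.10) and separated downward in liver, at 1.58, 2.47, 2.18 and 1.12 CPM against 0.303, 0.992, 0.452 and 0.714 CPM. Other genes of this group had contrasts of 0.84 for Rtp3 and 0.79 for Ptp4a1 on one side, and -0.64 for Atf7ip, -1.61 for Fam115a, -0.51 for Leo1 and -1.23 for Bhlhb9 on the other.

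**Figure D4:**
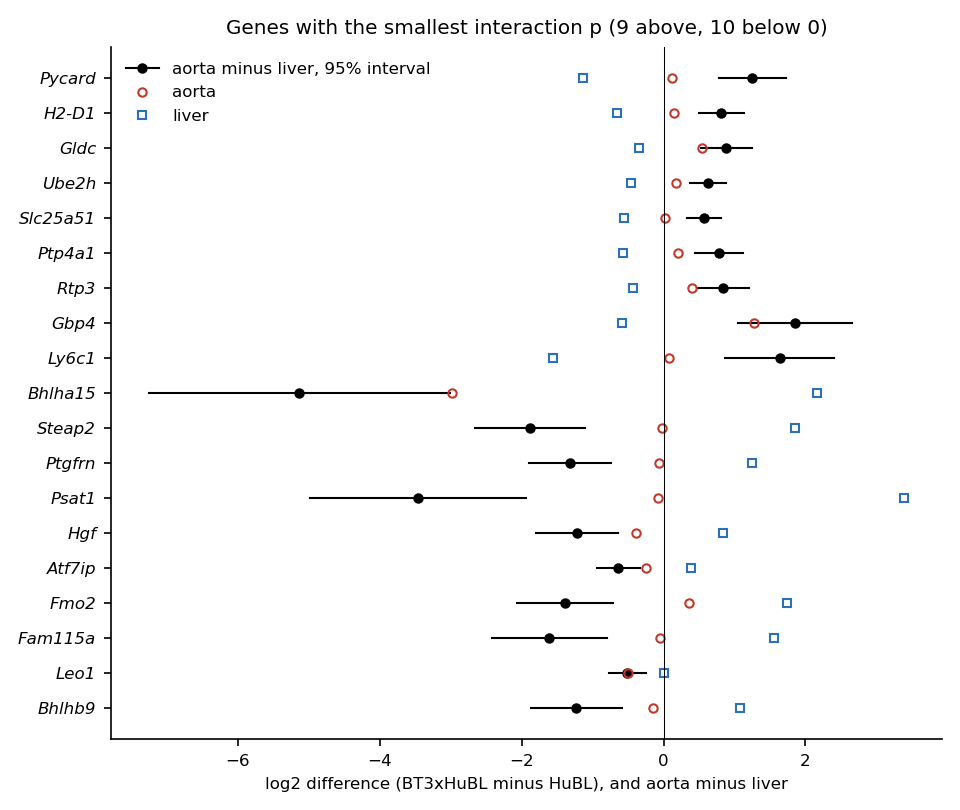
For genes of smallest interaction p, 9 with the aorta difference above the liver difference and 10 with it below, the filled point is the aorta difference minus the liver difference with its 95% interval, and open symbols are the difference in aorta (circle) and in liver (square), all in log2 units on the x axis. For Pycard, Slc25a51, Ly6c1, Steap2, Ptgfrn and Psat1 the aorta symbol lies near 0 and the liver symbol carries the contrast, while for Leo1 the aorta does and for Gbp4 the larger part lies in aorta.

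Fmo2 (chr1:162874317-162898726), a flavin monooxygenase of xenobiotic metabolism, had the smallest p for a shared difference. It was counted at 383, 345 and 352 CPM in HuBL against 461, 484 and 426 CPM in BT3xHuBL aortas, and at 3.34, 3.32, 4.29 and 3.71 CPM in HuBL against 10.6, 7.34, 12 and 19.04 CPM in BT3xHuBL livers. Groups were apart in both tissues in the same direction, by 0.34 (SE 0.09) in aorta and 1.74 (SE 0.27) in liver. The average of 1.05 (SE 0.16) had an adjusted p of 0.120 in the edgeR quasi-likelihood test (Benjamini-Hochberg), and it passed the threshold with library-total scaling, by DESeq2, and without BT3xHuBL aorta 3, BT3xHuBL liver 2 or BT3xHuBL liver 4. Because its liver difference was larger, Fmo2 also stood among the smallest interaction p, with a contrast of -1.39 (SE 0.31).

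Lipg, endothelial lipase, which cuts phospholipids of HDL, had 0.481, 0.342 and 0.585 CPM in HuBL against 1.57, 2.04 and 0.861 CPM in BT3xHuBL aortas, and 5.68, 5.63, 5.87 and 4.67 CPM against 6.25, 9.91, 10.1 and 6.78 CPM in livers, separated in both, with an average of 1.12 (SE 0.20). Cyp2e1, the ethanol-metabolising cytochrome P450, averaged 0.69 (SE 0.15), with 21.1, 28.8 and 15.7 CPM against 57.5, 56.1 and 33.4 CPM in aortas. The hepatocyte markers summed to 1.53 to 2.64 CPM in HuBL and 1.28 to 4.14 CPM in BT3xHuBL aortas, with Serpina1b at means of 1.38 and 2.21 CPM and Alb at 0.27 and 0.055 CPM, and their part in the Cyp2e1 value was not tested. Slc1a2, a glutamate transporter, Adamts1, a matrix protease, and Oplah, of glutathione turnover, were separated upward in both tissues, with averages of 0.94 (SE 0.19), 0.49 (SE 0.10) and 0.32 (SE 0.07). The other genes of smallest p on this side were Sgsm1, Cgn, Zbtb45 and Hlf, with averages of 0.89 (SE 0.17), 1.08 (SE 0.22), 0.49 (SE 0.11) and 0.63 (SE 0.14). Lower in both were Pla1a, a phosphatidylserine lipase, at -0.32 (SE 0.06), Tob1, an antiproliferative factor of T cells and other cells, at -0.37 (SE 0.07), and Treml2, a receptor of myeloid and lymphoid cells, at -0.60 (SE 0.12). Tob1 had 167, 169, 169.8 and 167 CPM in HuBL against 132, 111, 95.4 and 122 CPM in BT3xHuBL livers, with no overlap.

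Most of the remaining lists gave no separation between the tissues. Cholesterol synthesis genes had medians of -0.08 in aorta and 0.05 in liver over 19 genes, fatty acid oxidation genes 0.08 and 0.17 over 17, unfolded protein response genes 0.0096 and 0.03 over 17, and ribosomal protein genes 0.05 and -0.04 over 20. The interaction had an unadjusted p under 0.05 for 0 of 19, 1 of 17, 2 of 17 and 0 of 20 of them, near or under the background. White adipocyte genes shared a sign in 8 of 8, with medians of 0.30 and 0.16, and adipocyte markers summed to 99.7 to 183 CPM in HuBL and 95.7 to 235 CPM in BT3xHuBL aortas. Cell cycle genes were lower in 18 of 18 in aorta (median -0.15) and 15 of 18 in liver (median -0.30). Heat shock chaperones had medians of 0.06 in aorta and -0.27 in liver, with 13 of 14 lower in liver. Acute phase genes had a liver median of 0.43 that turned to -0.18 without BT3xHuBL liver 4, in which Saa1, an acute phase apolipoprotein, stood at 2418 CPM against 72.1 to 74.4 CPM in the other 3 BT3xHuBL livers. Cytochrome P450 and conjugation genes, of which 6 of 23 were tested in both tissues, had medians of 0.82 in aorta, on counts far below those of liver, and -0.12 in liver. No member of the striated muscle list was tested in both tissues.

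**Figure D5:**
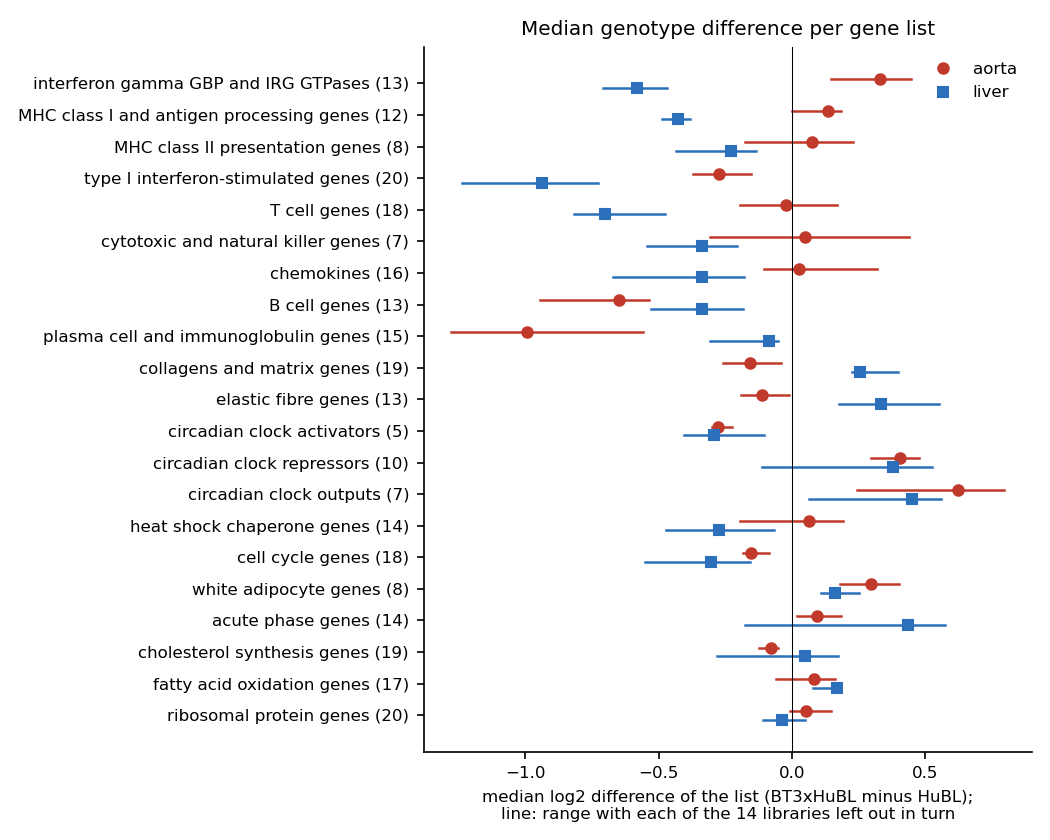
Median log2 difference (x axis) in aorta (circles) and liver (squares) is shown for 21 gene lists (y axis, genes tested in both tissues in brackets), and lines give the range when each of the 14 libraries is left out in turn. The GBP and IRG list lies at 0.33 in aorta and -0.58 in liver, collagens at -0.16 and 0.25, and the type I interferon, B cell, clock activator and cell cycle lists lie on the same side of 0 in both tissues.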

How the data were processed

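RNA from 6 aortas and 8 livers was made into 3′ libraries (QuantSeq V2), per the labels' protocols. The authors deposited whole-number counts per gene in 1 table per tissue, made with HTSeq 2.0 on GRCm38 per the submitters' processing notes. The aligner, annotation and strand setting were not given in the sources used here. Without strand, overlapping genes cannot be told apart, and 1676 of the genes tested in both tissues overlap another.

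The tables were joined by feature name. edgeR 4.0.16 (R 4.3.3; TMM scaling, filterByExpr within each tissue, robust quasi-likelihood F-test, 2-sided, Benjamini-Hochberg threshold 0.05, prior count 0.125) was fitted to all 14 libraries for the interaction and the average, and to each tissue alone for the tissue differences. DESeq2 1.42.0 and limma-voom (limma 3.58.1) were alternatives, with other scalings, filters and each library left out in turn. The fit was tested on simulated data. List scores are means of log2 CPM with 2 CPM added. Correlations across genes carry no p.

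Named genes were the 10 of smallest p per direction in the interaction (mean of at least 1 CPM in a tissue) and in the average with the same sign, those called in a tissue, and up to 4 per list. Other list members are shown for their role. Values of some genes are not reported here, though the counts over lists include them. The members and gene lists were chosen with earlier results of these data known. Gene positions are from GENCODE M21 and promoters from RefSeq.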

Additional observations from a re-analysis of the deposited data

Results flagged for a closer look

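In 78 screens of 39 genes, each over the 4 livers of a group, 7 held a library far from the other 3, where chance alone gives about 1 in 20 groups. Of these, 4 were BT3xHuBL liver 2: Dbp at 40.4 CPM (others 2.62 to 7.29), Hlf at 60.1 CPM (others 46.1 to 48.2), Tef at 104 CPM (others 43.8 to 49.6) and Irf7 at 387 CPM (others 190 to 223). The first 3 are output factors of the clock. BT3xHuBL liver 4 stood out in the acute phase genes Saa1, at 2418 CPM (others 72.1 to 74.4), and Itih4, at 6974 CPM (others 1863 to 2611). HuBL liver 3 stood out in Dbp, at 5.34 CPM (others 1.83 to 2.42).

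For 6 named genes, every BT3xHuBL library lay on one side of every HuBL library in aorta and on the other side in liver. H2-D1 (interaction 0.81 log2 units), Gldc (0.89), Rtp3 (0.84) and Ube2h (0.63) were higher in aorta and lower in liver, and Hgf (-1.22) and Atf7ip (-0.64) the reverse. These genes were named by their interaction p, and none passed the adjusted threshold of edgeR's quasi-likelihood test of the difference itself.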

How the results depend on the processing

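Counts of called genes depended on the tool and on single libraries. With DESeq2, 42 genes were called for the interaction, 62 for the average, 68 for aorta and 133 for liver. Aorta calls numbered 9 without the low-count filter and 0 in the fit of all 14 libraries, where liver calls numbered 10; library-total scaling gave 1 average call. The labels do not say that replicate numbers mark shared mice. Libraries of the same number and genotype in the other tissue correlated at -0.0029 to 0.16 (median 0.060, other numbers -0.023). BT3xHuBL aortas 1 to 3 and HuBL aorta 3 correlated best with the liver of their own number, and HuBL aortas 1 and 2 did not. The numbers were not taken as pairs, and if they mark shared mice, the average contrast treated paired libraries as independent. A block by genotype and number across tissues gave 0 interaction calls. Another block joined equal numbers of the genotypes within a tissue (median correlation 0.052, other numbers -0.029), which does not pair aorta with liver. It gave 3 interaction, 6 average, 14 aorta and 10 liver calls. Leaving out 1 library gave 0 to 4 interaction, 0 to 9 average, 0 to 27 aorta and 0 to 5 liver calls; the 4 interaction calls came without BT3xHuBL liver 2. Across genes, r was 0.047 with at least 5 CPM and 0.061 with aorta counts thinned to liver depth. Without 1 library, r ran from -0.0044 to 0.071, rho from -0.095 to 0.097 and the same-sign share from 45.3% to 54.2%. Named genes were followed in the contrast that named them or gave their smallest p. Only 4 passed the threshold in the main fit, so most could not lose it and few were likely to reverse. Of 2621 alternatives over 189 named genes, 2536 kept direction and side of the threshold, 71 passed it (52 with DESeq2) and 13 lost it. The 1 that reversed was Foxp3 in aorta, 0.24 without HuBL aorta 3 (range over removals -1.12 to 0.24). The causes were not tested. Liver libraries were shallower than every aorta library, which limits low liver genes.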
